A study of Mus musculus with 21 samples.

Results

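Single mouse epiblasts of embryonic day 5.5 (E5.5) were compared with single mouse epiblasts of embryonic day 5.0 (E5.0) across all expressed genes. The samples were chosen by their titles: E5.0 embryos 1, 2 and 4 and E5.5 embryos 1, 2 and 3, which are 6 of the 21 samples of the series. Of 33861 genes in the count table, 14228 had enough reads to be tested. The series set cultured formative and epiblast stem cells beside epiblasts taken from embryos, and only the epiblasts are used here. Each epiblast was collected on its own and its RNA was isolated with the PicoPure kit, so each value below is 1 embryo. The labels give the stage and no culture condition for these samples, and no strain, sex, genotype, litter or batch was given in the labels. The 3 oldest epiblasts are titled E6.0, while another label field calls them 6.5. They share the estimate of the spread between embryos and give the next interval for comparison. A library holds the RNA of a whole epiblast, so fewer cells of a type and less RNA per cell cannot be told apart.

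The epiblast is the tissue of the early embryo from which the whole body arises. Around implantation its cells leave the naive state of pluripotency, in which genes of the LIF and KLF circuits are active, and pass through a formative state before they become primed to answer the signals of gastrulation. During this time the cells polarise around a lumen on a basement membrane, the genome gains DNA methylation, and the epiblast lies against the visceral endoderm, which covers it, and the extraembryonic ectoderm, which continues it on the proximal side.

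Values below are CPM, the read counts of a gene scaled to its library's total after TMM normalization, given for E5.0 embryos 1, 2 and 4 and then for E5.5 embryos 1, 2 and 3. CPM do not correct for gene length, so levels are compared between stages and not between genes. Differences are log2 fold changes of E5.5 against E5.0 with their standard error (SE), tested with edgeR's quasi-likelihood test, two-sided, with Benjamini-Hochberg adjustment over the 14228 genes. A gene is said to have risen or fallen where the adjusted p was under 0.05. Total counts were 5827093 to 9391906 per library at E5.0 and 9510145 to 11740260 at E5.5, and 3 counts corresponded to 0.254 to 0.546 CPM. The embryos of E5.0 differed more among themselves, with a median SD of log2 CPM of 0.386 over genes against 0.272 at E5.5. Loci of ribosomal RNA type took 22.2% to 31.7% of the counts in the 9 epiblast libraries. Chromosomal positions are GENCODE M21 coordinates on GRCm38, matched by Ensembl identifier.

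The label of the tissue was checked against its defining genes. Pou5f1 (ENSMUSG00000024406, chr17:35506018-35510772), the POU factor of pluripotent cells, was at 542, 513 and 531 CPM at E5.0 and 568, 529.8 and 578 CPM at E5.5. Sox2, its partner, was at 35.7, 35.3 and 51.5 CPM at E5.0 and 25.6, 28.2 and 35.2 CPM at E5.5. The epiblast genes Otx2, Fgf5 and Pou3f1 were also read in all 6 embryos, with a lowest value of 51.3 CPM for Fgf5 in E5.5 embryo 1. Markers of the visceral endoderm were read in the same libraries and differed between the stages. The 16 tested markers of this tissue, summed without Lrp2, which was at 244 CPM or more in every epiblast, stood at 705, 885 and 311 CPM at E5.0 and at 87.8, 58.7 and 44.7 CPM at E5.5. No E5.5 embryo reached the lowest E5.0 embryo. The sum at E6.0 was 34.9, 31.0 and 33.3 CPM. Of the 20 markers listed, 1, 1 and 3 had no read in the E5.0 embryos and 2 had none in each E5.5 embryo. Of the 4 markers with too few reads to be tested, Ihh had 17, 7 and 7 reads at E5.0 and 0 in all 3 E5.5 embryos. The other 3 overlapped between the stages: Afp had 15, 7 and 0 reads at E5.0 and 2, 8 and 0 at E5.5, Sox17 had 8, 13 and 0 and then 1, 1 and 21, and Rbp4 had 4, 0 and 8 and then 0, 9 and 5.

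Of these 16 markers, 11 fell and none rose, with a median log2 fold change of -2.36 where the median over all genes tested was -0.01. Over all genes, 3.75% fell. Cubn (ENSMUSG00000026726, chr2:13276338-13491813), the endocytic receptor cubilin, was at 321, 583 and 137 CPM at E5.0 and 24.4, 11.1 and 3.38 CPM at E5.5 (-4.76 ± 0.84, adjusted p = 0.0271). Dab2, its endocytic adaptor, was at 96.2, 109.8 and 61.7 CPM at E5.0 and 21.95, 22.97 and 17.7 CPM at E5.5 (-2.10 ± 0.21, adjusted p = 0.000243). For both genes every E5.0 embryo lay above every E5.5 embryo. Hnf4a, the hepatocyte nuclear factor of endoderm, was at 11.1 ± 0.0804 and 2.46 ± 0.225 CPM (SD, n = 3) and fell as well (-2.17 ± 0.39, adjusted p = 0.0061). The apolipoprotein genes Apoa1, Apob and Apom, the transthyretin gene Ttr, the cubilin partners Amn and Lrp2 and the transcription factor Gata4 also fell, with log2 fold changes from -1.22 for Lrp2 to -3.23 for Ttr and a lower one for Apom. Apoa4, Gata6, Spink1, Foxa1 and Pdgfra did not pass. Cubn did not pass in 1 fit that left out an embryo (adjusted p = 0.111 without E5.5 embryo 2), and Ttr, Apob, Apom, Amn and Lrp2 lost their calls in 3 to 5 of the 6 such fits, with adjusted p up to 0.142 without E5.5 embryo 2. Of the listed markers 5 fell without E5.5 embryo 2 and 5 without E5.5 embryo 3, 7 fell without E5.5 embryo 1, without E5.0 embryo 1 or without E5.0 embryo 2, and 6 fell with the 6 embryos fitted alone.

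Markers of extraembryonic ectoderm and trophoblast summed over the 14 listed genes in the table to 84.9, 110.4 and 46.5 CPM at E5.0, to 41.9, 26.5 and 48.6 CPM at E5.5 and to 95.5, 175.6 and 67.4 CPM at E6.0. Most of the E5.0 sum was Eomes, which the primitive streak list also holds, at 76.04, 74.2 and 40.6 CPM. Of the 14 genes 6, 3 and 5 had no read in the E5.0 embryos and 7, 8 and 6 in the E5.5 embryos. Of 15 listed trophoblast markers 5 had enough reads to be tested, and none of them passed. Tpbpa had no read in any epiblast. Among the others with too few reads to be tested, Elf5 had 5, 40 and 0 reads at E5.0 and Hand1 had 0, 37 and 0. Neither had a read in the E5.5 embryos. Esx1 had 2, 17 and 2 reads at E5.0 and 1, 5 and 0 at E5.5, and Gata2 had 3, 16 and 9 and then 9, 6 and 0. Rhox6 was read in E5.0 embryo 4 alone of the 6, with 7 reads, and Rhox9 most in E5.5 embryo 3, with 4. Blood, decidua and anterior visceral endoderm lists held 8, 8 and 5 genes, of which 1, 4 and 2 could be tested, and none passed by edgeR's test or by DESeq2's Wald test. At an unadjusted p under 0.05 the decidua list held 3 genes and the other lists held none. The sex-linked genes split the embryos. Ddx3y, Uty, Eif2s3y and Kdm5d, which lie on the Y chromosome, summed to 137 CPM in E5.0 embryo 2, to 158 CPM in E5.5 embryo 1 and to 143 CPM in E5.5 embryo 2, and to at most 0.423 CPM in the other 3. Xist, the RNA that coats the inactive X chromosome, stood at 785, 54.01 and 595 CPM at E5.0 and at 16.5, 0.835 and 646 CPM at E5.5. The stages therefore hold 1 embryo of 3 and 2 embryos of 3 with Y-linked reads. The part of the trophoblast reads in the differences that follow was not tested.

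**Figure D1:**
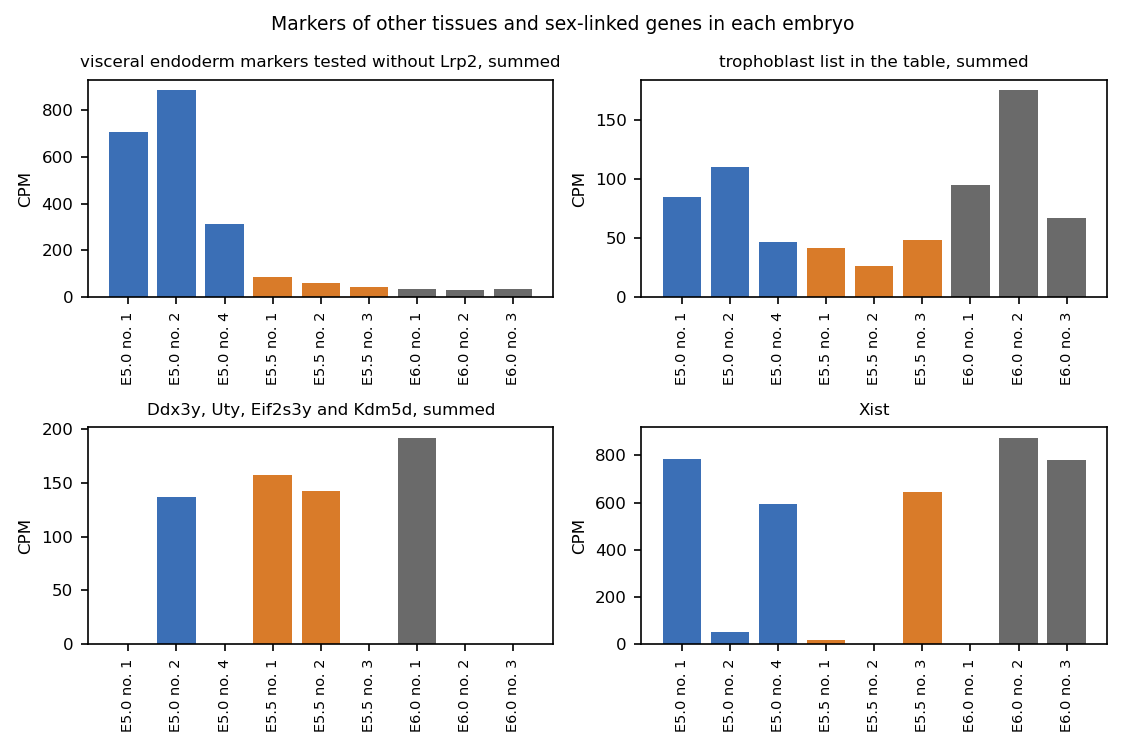
Bars give CPM in each epiblast for the tested visceral endoderm markers without Lrp2, for the trophoblast list, for 4 Y-linked genes and for Xist, with embryos in the order of stage and number. The endoderm sum is 311 CPM or more in the E5.0 embryos and 87.8 CPM or less in the others, and the trophoblast sum is highest in E6.0 embryo 2, followed by E5.0 embryo 2.

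Between the stages 971 of 14228 genes passed the threshold, which is 6.82%. Of these 437 were higher at E5.5 (3.07% of genes tested) and 534 were lower (3.75%). At least a 2-fold change was found in 225 of the higher and 341 of the lower genes, and at least a 4-fold change in 88 and 147. Without adjustment 3229 genes had a p under 0.05. Of the 971 genes, 963 had no overlap between the 3 embryos of one stage and the 3 of the other, a separation that 23.9% of all genes tested showed. Where a lack of overlap is given for a gene that passed, it describes the values and adds no support. Protein-coding genes made up 928 of the 971 calls and 12246 of the genes tested. The count depended on single embryos: it was 371 without E5.5 embryo 2, 445 without E5.5 embryo 1 and 571 without E5.5 embryo 3, and 1260 without E5.0 embryo 2.

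**Figure D2:**
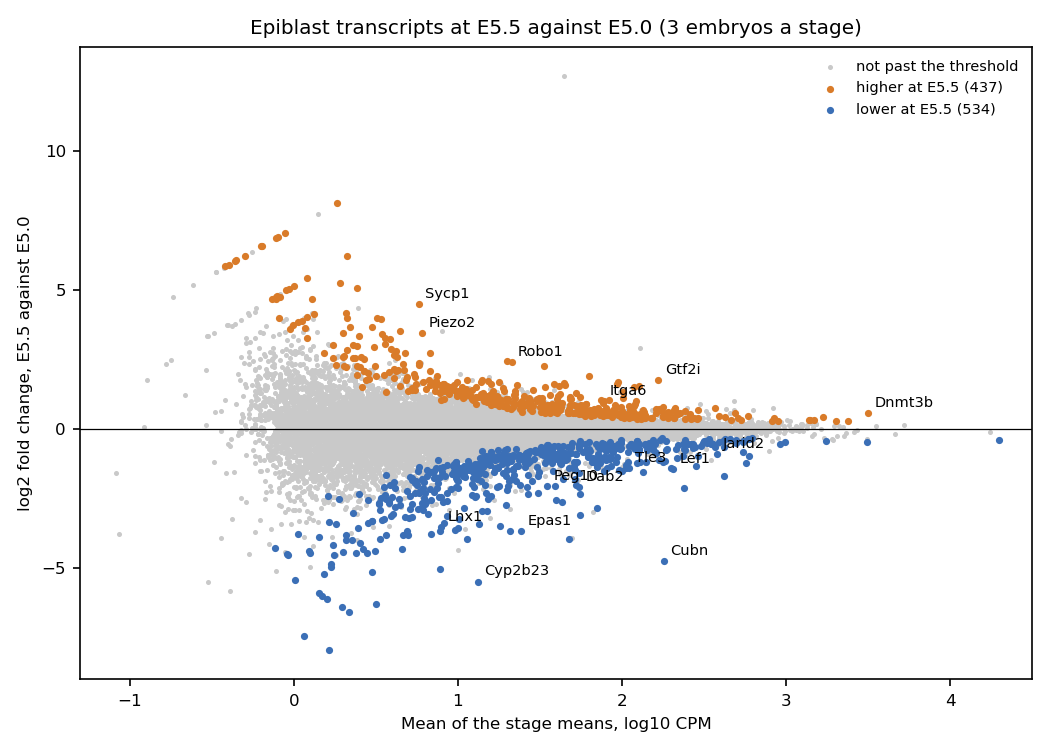
Each point is 1 of the 14228 genes tested, with the mean of the stage means on a log10 CPM axis and the log2 fold change of E5.5 against E5.0 on the other. Orange points are the 437 genes higher at E5.5 and blue points the 534 genes lower at E5.5. At low CPM only large changes passed the threshold, while Dnmt3b passed with a log2 fold change of 0.57.

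Known groups of genes differed in their medians. Naive pluripotency, primitive streak and mesenchymal lists had medians below that of all genes, and so had sterol synthesis and the mitochondrial genome. The lists of the integrated stress response and of clustered histones had medians above it. Lists for NODAL, BMP and retinoic acid signalling, p53 targets and immediate early genes held no gene that passed the threshold, of 17, 17, 10, 18 and 14 tested, with medians of -0.09, -0.33, 0.23, -0.10 and -0.06. At an unadjusted p under 0.05 they held 3, 5, 3, 5 and 1 genes, and DESeq2's Wald test called 2, 2, 2, 1 and 1, in the same order.

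**Figure D3:**
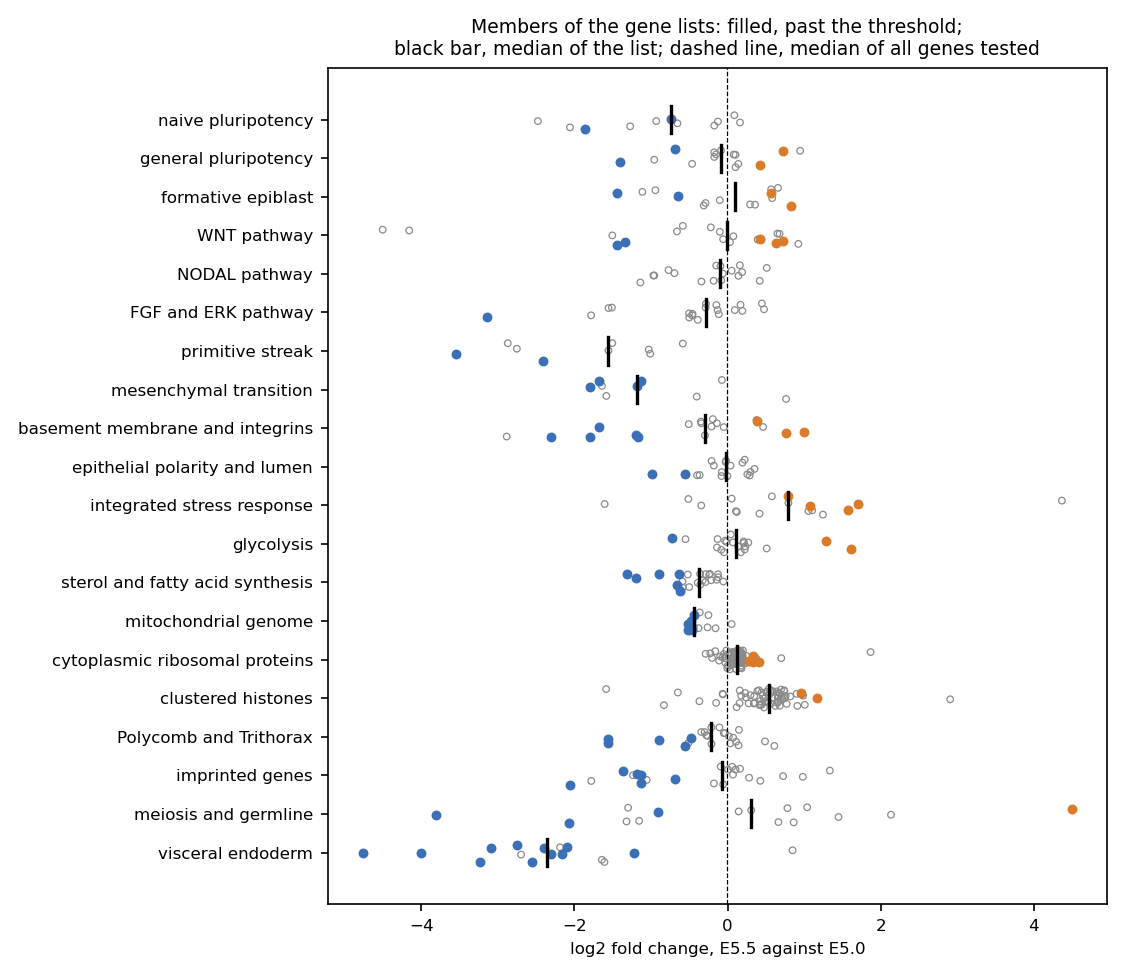
Each point is 1 tested gene of a list, placed at its log2 fold change of E5.5 against E5.0, filled where the adjusted p was under 0.05 (orange, higher at E5.5, and blue, lower at E5.5) and open otherwise. Black bars mark list medians and the dashed line the median of all genes tested, -0.01. The visceral endoderm list, at -2.36, lies farthest from that line.

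The core pluripotency genes Pou5f1 and Sall4 differed by little between the stages, and a few of their partners moved. Of 15 genes of general pluripotency, 2 rose, Lin28a and Tcf7l1, and 2 fell, among them Dppa2. Together they were 26.7% of the list, where 6.82% of all genes passed. Pou5f1 differed by 0.08 ± 0.08 on the log2 scale (adjusted p = 0.622) and Sall4, a zinc finger factor of the same network, by 0.10 ± 0.09 (adjusted p = 0.532). Nanog, the homeodomain factor that is re-expressed in the posterior epiblast, was low and uneven, at 9.69, 2.55 and 1.21 CPM at E5.0 and 6.03, 6.06 and 14.2 CPM at E5.5, so the stages overlapped and the difference did not pass (adjusted p = 0.457). Tcf7l1 (ENSMUSG00000055799, chr6:72626378-72789254), the TCF factor that acts mainly as a repressor of pluripotency genes, was at 127, 135 and 103 CPM at E5.0 and 208, 190.3 and 205 CPM at E5.5. All 3 later embryos lay above the earlier ones, and the rise was 0.73 ± 0.13, adjusted p = 0.00508. Lin28a, an RNA-binding protein that blocks let-7 maturation, rose from 377, 356 and 360.2 to 462, 491 and 515 CPM (0.43 ± 0.09, adjusted p = 0.0127). Dppa2, which binds together with Dppa4 at developmental promoters, fell from 72.05, 54.6 and 75.6 to 38.3, 48.6 and 39.2 CPM (-0.68 ± 0.18, adjusted p = 0.0346), while Dppa4 was at 89.7, 74.9 and 85.6 CPM at E5.0 and 90.2, 71.4 and 60.5 CPM at E5.5 and did not pass (adjusted p = 0.592). The Tcf7l1 call held with any 1 of the 6 embryos left out. Those of Lin28a (adjusted p up to 0.0533 without E5.5 embryo 2) and Dppa2 (0.126 without E5.5 embryo 1) did not.

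Several genes of the naive state had few reads at both stages. Of 15 listed genes, Esrrb, Prdm14, Spic and Fbxo15 had too few reads to be tested, and Prdm14 had none in any of the 6 embryos. Among the 11 tested, Dppa5a and Klf5 fell (18.2%, where 3.75% of all genes fell) and none rose, and the median log2 fold change was -0.74. Dppa5a (ENSMUSG00000060461, chr9:78367052-78368177), a small RNA-binding protein of pluripotent cells, was the most read of them, at 148, 172 and 156 CPM at E5.0 and 93.01, 100.1 and 92.7 CPM at E5.5. The stages did not overlap (-0.74 ± 0.11, adjusted p = 0.00225), and the call held with any 1 embryo left out. Klf5, a Krüppel-like factor, was at 7.87, 29.6 and 10.02 CPM at E5.0 and 6.24, 2.61 and 4.06 CPM at E5.5 (-1.86 ± 0.48, adjusted p = 0.0332). E5.0 embryo 2 was the highest of the 6, and the Klf5 call was lost without E5.0 embryo 2 or without any 1 E5.5 embryo (adjusted p up to 0.137 without E5.5 embryo 2). Zfp42, Tfcp2l1 and Tbx3 were at 3.19 to 20.9 CPM at E5.0 with log2 fold changes of -0.65, -1.27 and -2.06 that did not pass. Klf4 stood between 3.65 and 5.92 CPM in all 6 embryos.

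Formative genes moved in both directions. Of 14 tested, Dnmt3b and Sox4 rose, Lef1 and Grhl2 fell, and the median was 0.10. These were 28.6% of the list, where 6.82% of all genes passed. Sox4, an SRY-box factor, rose from 81.3, 95.7 and 62.2 CPM to 134, 141 and 148 CPM (0.83 ± 0.16, adjusted p = 0.00941). Grhl2, a grainyhead-like factor of epithelial enhancers, fell from 152, 136 and 147 CPM to 81.4, 114 and 83.6 CPM (-0.64 ± 0.14, adjusted p = 0.0152), a call lost without E5.5 embryo 1 (adjusted p = 0.0717) or without E5.5 embryo 3. Otx2, the homeodomain factor of the transition, was at 118, 60.7 and 87.4 CPM at E5.0 and 107, 123.1 and 113 CPM at E5.5, with E5.0 embryo 1 inside the later range, and did not pass (adjusted p = 0.289). Fgf5, a growth factor that marks the post-implantation epiblast, was at 68.1, 69.5 and 91.9 CPM at E5.0 and 51.3, 66.5 and 70.5 CPM at E5.5 (adjusted p = 0.293). Pou3f1, a POU factor of the same stage, was at 149, 175 and 198 CPM at E5.0 and 150.3, 121 and 149 CPM at E5.5 (adjusted p = 0.29). For each of them the stages overlapped. Zic2 and Zic5 had higher means at E5.5, with log2 fold changes of 0.58 and 0.66 and adjusted p of 0.176 and 0.104.

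Of 14 genes of the DNA methylation machinery 2 passed (14.3%, where 6.82% of all genes passed). Dnmt3b (ENSMUSG00000027478, chr2:153649450-153687730), a DNA methyltransferase that sets new methylation, was at 2459, 2649 and 2585 CPM at E5.0 and 3636, 3959.9 and 3815 CPM at E5.5. Within each stage the embryos differed by little next to the step between stages, with means of 2564 ± 96.3 and 3804 ± 162 CPM (SD, n = 3), and the rise was 0.57 ± 0.08, adjusted p = 0.00158. It held with any 1 embryo left out. Uhrf1, which brings the maintenance enzyme to newly copied DNA, fell from 683, 706 and 697 CPM to 515, 587 and 559.9 CPM (-0.33 ± 0.08, adjusted p = 0.0287), which 5 of the 6 fits without 1 embryo put above 0.05 (adjusted p up to 0.121 without E5.5 embryo 1). The other 12 genes of the list did not pass. Dnmt3l, the inactive cofactor of the new-methylation enzymes, was at 264, 306 and 394 CPM at E5.0 and 101, 211 and 189 CPM at E5.5 with no overlap, yet its spread left it at an adjusted p of 0.205. Dnmt3a, Dnmt1 and Tet1, the first a second enzyme of new methylation, the next the maintenance enzyme and the last an oxidase of methylated cytosine, had log2 fold changes of -0.10, -0.09 and 0.02.

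Among the signalling pathways, the WNT list held the most calls, with Fzd2, Lrp6 and Tcf7l1 higher and Axin2 and Lef1 lower of 20 genes tested. These were 25% of the list, where 6.82% of all genes passed. Lef1 (ENSMUSG00000027985, chr3:131110471-131224356), a TCF/LEF factor that activates WNT targets and is itself such a target, was at 273, 321 and 311 CPM at E5.0 and 112, 103 and 117 CPM at E5.5. The 6 embryos formed separate ranges, with means of 301 ± 25.3 and 111 ± 7.20 CPM (SD, n = 3), and the change was -1.44 ± 0.10, adjusted p = 2.29e-05. The adjusted p stayed under 0.05 with any 1 embryo left out and was at most 0.000457 without E5.5 embryo 2. Axin2, a negative regulator and a widely used readout of WNT signalling, was at 67.6, 71.8 and 80.2 CPM at E5.0 and 32.9, 21.3 and 32.6 CPM at E5.5 (-1.34 ± 0.27, adjusted p = 0.0126), and lost its call without E5.5 embryo 2 (adjusted p = 0.0582). The Frizzled receptor Fzd2 rose from 22.9, 23.3 and 20.8 to 32.1, 32.9 and 39.05 CPM (0.64 ± 0.16, adjusted p = 0.0329), and its co-receptor Lrp6 from 94.96, 96.4 and 103 to 126, 129 and 142 CPM (0.43 ± 0.10, adjusted p = 0.0222). Both calls were lost without some embryo, with adjusted p up to 0.109 without E5.5 embryo 3 for Fzd2 and 0.0766 without E5.5 embryo 3 for Lrp6. Tcf7 and Tcf7l2, the other TCF genes, had log2 fold changes of -0.10 and 0.44 and did not pass. The ligand genes Wnt3, Wnt8a and Wnt11 were at 3.42 CPM or less in the 6 embryos.

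Lists of NODAL, FGF, BMP, LIF and retinoic acid signalling held at most 1 call each. The ligand Nodal was at 26.6, 24.4 and 22.5 CPM at E5.0 and 17.3, 14.6 and 25.9 CPM at E5.5, which overlapped (adjusted p = 0.407). Its co-receptor Tdgf1 was uneven, at 316, 151 and 194 CPM at E5.0 and 57.2, 126 and 157 CPM at E5.5, with E5.5 embryo 3 inside the earlier range (adjusted p = 0.292). The secreted inhibitors Lefty1 and Lefty2 were at 16.2 CPM or less in every embryo. Of 19 FGF and ERK genes 1 passed (5.26%, where 6.82% of all genes passed). That gene, the receptor Fgfr4, fell from 4.67, 14.2 and 2.20 CPM to 1.35, 0.313 and 0.676 CPM (-3.13 ± 0.86, adjusted p = 0.0443), where E5.0 embryo 2 was the highest. Leaving out that embryo (adjusted p = 0.189) or any 1 E5.5 embryo ended the call. Fgfr4 is also known from endoderm, the summed endoderm markers had the same order among the E5.0 embryos, and their part in this value was not tested. The ligand Fgf4 was at 105, 103 and 94.3 CPM at E5.0 and 62.6, 73.6 and 83.2 CPM at E5.5 (adjusted p = 0.127), and the ERK targets Dusp6, Spry2 and Etv5 had log2 fold changes of -0.28, -0.46 and -0.11 that did not pass. Of 11 LIF genes 1 passed (9.09%), Pim3, a kinase gene that STAT3 induces, which rose from 24.5, 31.5 and 23.2 to 39.3, 47.3 and 44.7 CPM (0.73 ± 0.17, adjusted p = 0.024, up to 0.0953 without E5.5 embryo 2). Cyp26a1, the enzyme that clears retinoic acid, was at 31.6, 24.5 and 5.07 CPM at E5.0 and 3.12, 1.15 and 0.761 CPM at E5.5 without overlap, with an adjusted p of 0.0731.

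Genes that mark the primitive streak, the site of gastrulation, had log2 fold changes below 0 in all 9 cases tested, with a median of -1.55, and Lhx1 and Gsc fell. The falls were 22.2% of those tested, where 3.75% of all genes fell. Lhx1 (ENSMUSG00000018698, chr11:84518284-84525535), a LIM homeodomain factor of the node and also of anterior endoderm, was at 20.1, 14.2 and 9.47 CPM at E5.0 and 0.936, 1.15 and 1.61 CPM at E5.5 (-3.54 ± 0.54, adjusted p = 0.00212). The fall held with any 1 embryo left out. Gsc, the goosecoid homeodomain factor, was at 3.65, 2.36 and 2.20 CPM at E5.0 and 0.208, 0.522 and 0.761 CPM at E5.5 (-2.41 ± 0.57, adjusted p = 0.0226), with adjusted p up to 0.0782 without E5.5 embryo 2. Eomes, a T-box factor, was at 76.04, 74.2 and 40.6 CPM at E5.0 and 34.5, 17.3 and 41.2 CPM at E5.5, and Foxa2, a forkhead factor, at 9.12, 3.82 and 6.83 CPM at E5.0 and 1.46, 1.46 and 0.0845 CPM at E5.5, and neither passed (adjusted p = 0.249 and 0.0803). Brachyury (T) had at most 8 reads in each of the 6 embryos and was not tested. Lhx1 and Foxa2 are also endoderm genes. The endoderm markers fell between the same embryos, as given above, and their part in the streak values was not tested. Of 15 neural plate genes 6 could be tested and 1 of them passed (16.7%, where 6.82% of all genes passed). Nes, an intermediate filament of neural progenitors, rose from 49.9, 62.4 and 39.8 CPM to 91.8, 65.9 and 87.6 CPM (0.70 ± 0.17, adjusted p = 0.0287, up to 0.106 without E5.5 embryo 1).

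Germ cell and germline genes split. Kit, the receptor of stem cell factor, rose from 10.9, 4.91 and 3.74 CPM to 18.8, 31.2 and 13.8 CPM (1.69 ± 0.41, adjusted p = 0.0279), a call lost without E5.0 embryo 2 or 4 or without E5.5 embryo 1 or 2 (adjusted p up to 0.113 without E5.5 embryo 2). The germ cell factors Prdm1 and Tfap2c were at 8.36 CPM or less. Of 15 tested genes of meiosis and the germline, Hormad1, Stk31 and Rnf17 fell and Sycp1 rose, and the median was 0.31. The calls were 26.7% of those tested, where 6.82% of all genes passed. Hormad1 (ENSMUSG00000028109, chr3:95559677-95587671), a protein of the meiotic chromosome axis, was at 42.4, 29.8 and 26.2 CPM at E5.0 and 5.41, 6.16 and 11.8 CPM at E5.5 (-2.06 ± 0.42, adjusted p = 0.0131). Stk31, a testis kinase-like protein with a Tudor domain, was at 6.38, 5.64 and 13.9 CPM at E5.0 and 1.35, 0.522 and 0 CPM at E5.5 (-3.81 ± 0.83, adjusted p = 0.0162), and Rnf17, another Tudor protein, at 41.8, 43.8 and 70.5 CPM at E5.0 and 22.4, 30.3 and 31.02 CPM at E5.5 (-0.90 ± 0.21, adjusted p = 0.0234). Sycp1 (ENSMUSG00000027855, chr3:102818499-102936100), the transverse filament of the synaptonemal complex, went the other way, from 0.798, 0.727 and 0 to 8.22, 4.80 and 20.3 CPM (4.49 ± 1.05, adjusted p = 0.033). In each case the stages did not overlap, which held for 963 of the 971 genes past the threshold. With 1 embryo left out the adjusted p reached 0.0724 without E5.5 embryo 2, 0.0782 without E5.5 embryo 2, 0.0986 without E5.5 embryo 1 and 0.0847 without E5.0 embryo 2, in that order. Dazl, an RNA-binding protein of germ cells, was at 2.62, 14.4 and 9.25 CPM at E5.0 and 9.05, 13.4 and 6.34 CPM at E5.5, and Ddx4, a germ cell helicase, at 6.16, 13.6 and 6.72 CPM at E5.0 and 12.5, 16.4 and 16.1 CPM at E5.5, and neither passed.

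Many germline genes carry an E-box of the letters CACGTG near their start, so this motif, which reads the same on both strands, was searched in the 250 bases before each gene's start in RefSeq promoters of GRCm38.p6. It was present in 9 of the 14 germline genes with a promoter entry, in 6.05% of all 27025 promoters, in 8.68% of those of the genes tested, in 8.62% of those of the genes that were higher at E5.5 and in 10.7% of those of the genes that were lower. The promoters of Hormad1 and Stk31, which fell, and of Sycp1, which rose, are shown because all 3 hold the motif while the genes moved in opposite directions. Each is the last 150 bases before the start, 5′ to 3′ on the gene's own strand, with the motif in capitals. They lie at chr3:95559527-95559676 (plus strand), chr6:49395389-49395538 (plus strand) and chr3:102936101-102936250 (minus strand), and the motif begins 57 and 20 bases before the start in Hormad1, 55 bases in Stk31 and 94 bases in Sycp1. A match is a run of letters and no evidence that a factor binds there.
Hormad1: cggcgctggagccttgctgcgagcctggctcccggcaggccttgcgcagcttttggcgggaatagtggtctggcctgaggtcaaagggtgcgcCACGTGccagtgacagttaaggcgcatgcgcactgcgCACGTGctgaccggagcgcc
Stk31: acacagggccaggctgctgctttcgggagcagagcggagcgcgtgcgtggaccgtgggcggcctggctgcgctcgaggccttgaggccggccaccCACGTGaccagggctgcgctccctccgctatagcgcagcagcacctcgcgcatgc
Sycp1: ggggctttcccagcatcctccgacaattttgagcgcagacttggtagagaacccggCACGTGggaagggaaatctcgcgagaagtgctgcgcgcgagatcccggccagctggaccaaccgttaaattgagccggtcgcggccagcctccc

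Of 18 genes of epithelial polarity and lumen, Podxl and Ezr fell (11.1%, where 3.75% of all genes fell), none rose and the median was -0.02. Ezr (ENSMUSG00000052397, chr17:6738041-6782784), which links apical membrane proteins to actin, was at 364, 413 and 387 CPM at E5.0 and 151, 229 and 208 CPM at E5.5 (-0.98 ± 0.15, adjusted p = 0.00212). Podxl, the sialomucin podocalyxin that lines the lumen, was at 277, 231 and 280.2 CPM at E5.0 and 153, 185 and 197 CPM at E5.5 (-0.56 ± 0.11, adjusted p = 0.0113). Both separated the stages. The Ezr call held with any 1 embryo left out, and that of Podxl was lost without E5.5 embryo 1 (adjusted p = 0.0517). E-cadherin (Cdh1) was at 572, 616 and 535 CPM at E5.0 and 559.8, 537 and 536 CPM at E5.5, a difference of -0.08 ± 0.09 on the log2 scale (adjusted p = 0.654). The polarity genes Pard3, Pard6b and Prkci and the tight junction genes Tjp1 and Cldn6 also had log2 fold changes between -0.07 and 0.29 and did not pass.

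Of 9 genes of mesenchymal transition, Cdh2, Vim, Fn1 and Sparc fell (44.4%, where 3.75% of all genes fell), with a list median of -1.19. N-cadherin (Cdh2) was at 29.6, 36.2 and 33.3 CPM at E5.0 and 12.7, 7.83 and 8.03 CPM at E5.5 (-1.79 ± 0.30, adjusted p = 0.00391), and the call held with any 1 embryo left out. Vimentin (Vim) was at 92.1, 61.3 and 135 CPM at E5.0 and 44.8, 47.9 and 39.7 CPM at E5.5 (-1.13 ± 0.26, adjusted p = 0.0255) and did not pass in 5 of the 6 fits without an embryo (adjusted p up to 0.0906 without E5.5 embryo 3). The matrix gene Fn1, fibronectin, fell from 324, 944 and 654 to 212, 219.7 and 170.3 CPM (-1.67 ± 0.36, adjusted p = 0.0381), and Sparc, a collagen-binding matrix protein, from 69.2, 132 and 71.9 to 45.5, 34.8 and 39.1 CPM (-1.19 ± 0.22, adjusted p = 0.00743). Fn1 reached an adjusted p of 0.112 without E5.5 embryo 2, and Sparc kept its call in each such fit. The zinc finger repressors Snai1, Zeb1 and Zeb2 were at 4.91 CPM or less and did not pass.

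The basement membrane list held calls in both directions, 3 higher and 5 lower of 19 tested, with a median of -0.29. Its calls were 42.1% of the list, where 6.82% of all genes passed. Itga6 (ENSMUSG00000027111, chr2:71745616-71858416), the laminin-binding integrin α6, rose from 52.1, 52.01 and 51.1 CPM to 99.05, 116 and 95.9 CPM (1.00 ± 0.12, adjusted p = 0.000746). Its E5.0 embryos lay close together and far below the later ones, and no embryo left out ended the call. The heparan sulfate proteoglycan gene Hspg2, perlecan, rose from 181, 173 and 116 to 302, 249 and 249 CPM (0.77 ± 0.15, adjusted p = 0.00855), and Agrn, agrin, from 176, 205 and 161 to 238, 223 and 244 CPM (0.38 ± 0.10, adjusted p = 0.0418, up to 0.112 without E5.5 embryo 3). Nid2 (ENSMUSG00000021806, chr14:19751265-19811787), the linker protein nidogen, fell from 240.0, 241 and 283 CPM to 119, 98.97 and 123.1 CPM (-1.16 ± 0.12, adjusted p = 0.000243), and Nid1, its relative, from 19.6, 37.6 and 16.8 CPM to 6.76, 3.45 and 4.73 CPM (-2.30 ± 0.39, adjusted p = 0.00403). The collagen IV gene Col4a1 fell from 179, 287 and 121 to 88.7, 82.4 and 84.2 CPM (-1.20 ± 0.25, adjusted p = 0.0209), and its partner Col4a2 from 59.4, 106 and 39.8 to 19.7, 17.96 and 21.04 CPM (-1.80 ± 0.32, adjusted p = 0.00768). Col4a2 passed with any 1 embryo left out, and Col4a1 failed when any E5.5 embryo was left out (adjusted p up to 0.0865 without E5.5 embryo 2). At E5.0 Col4a1, Col4a2, Nid1, Cdh2, Fn1 and Sparc were highest in embryo 2, the embryo with the highest summed endoderm markers, and Nid2 and Vim were highest in embryo 4, which had the lowest. Endoderm makes basement membrane proteins, and the part of endoderm RNA in these values was not tested. The mean difference over the basement membrane list was -0.47 in log2 CPM and -0.29 without E5.0 embryo 2.

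Of 17 tested genes of the integrated stress response, the programme driven by the factor ATF4, Psat1, Phgdh, Asns and Mthfd2 rose, none fell and 13 did not pass, with a median of 0.79. The rises were 23.5% of the list, where 3.07% of all genes rose. The E5.5 embryos were uneven: the list averaged 3.75, 3.70 and 3.57 in log2 CPM at E5.0 and 4.84, 3.92 and 4.19 at E5.5, with embryo 1 the highest. The mean difference was 0.64, and 0.38 without E5.5 embryo 1. Phgdh, the first enzyme of serine synthesis, was at 55.9, 78.01 and 68.2 CPM at E5.0 and 111, 113 and 125 CPM at E5.5 (0.79 ± 0.13, adjusted p = 0.00323). Psat1 (ENSMUSG00000024640, chr19:15904678-15947337), the next enzyme, was at 35.3, 43.6 and 55.2 CPM at E5.0 and 140.5, 99.6 and 197 CPM at E5.5 (1.70 ± 0.30, adjusted p = 0.0151). For both genes all 3 later embryos lay above the earlier ones. Asns (ENSMUSG00000029752, chr6:7675169-7693254), asparagine synthetase, rose from 19.6, 22.7 and 25.4 to 67.002, 43.6 and 90.9 CPM (1.57 ± 0.33, adjusted p = 0.02), and Mthfd2, a mitochondrial enzyme of one-carbon metabolism, from 28.3, 32.6 and 33.1 to 87.8, 44.2 and 66.1 CPM (1.08 ± 0.23, adjusted p = 0.0151). Pck2 (ENSMUSG00000040618, chr14:55540266-55551242), mitochondrial phosphoenolpyruvate carboxykinase and a further ATF4 target, was not on the list and was named for its size of change: it rose from 9.46, 2.73 and 5.84 to 39.8, 24.3 and 36.8 CPM (2.45 ± 0.37, adjusted p = 0.00301). The calls of Phgdh and Pck2 held with any 1 embryo left out. Psat1 (adjusted p = 0.0547 without E5.0 embryo 2), Mthfd2 (0.0543 without E5.5 embryo 1) and Asns (0.0713 without E5.0 embryo 2, and 3 other embryos) lost theirs. These 3 also did not pass by voom with a weight per stage, chosen after the data were seen (adjusted p = 0.137, 0.165 and 0.259). Atf4 itself was at 122, 122 and 82.8 CPM at E5.0 and 212, 145 and 131 CPM at E5.5 and did not pass (adjusted p = 0.0895). The stress members of the list did not move together: Ddit3, a mediator of cell death under stress, was at 1.25, 1.82 and 2.09 CPM at E5.0 and 0.208, 0.313 and 1.10 CPM at E5.5, and Trib3 and Chac1 were high in E5.5 embryo 1 alone of the 6. Trib3, a pseudokinase that the stress response induces, was at 4.79, 6.91 and 5.07 CPM at E5.0 and 26.2, 2.92 and 5.58 CPM at E5.5, and Chac1, which breaks down glutathione, at 0.456, 0.182 and 0 CPM at E5.0 and 11.96, 1.77 and 0.423 CPM at E5.5.

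The composite element of ATF4 was searched as TGATGNAA on both strands of the same 250-base windows. It was found in 4 of the 16 stress response genes with a promoter entry (Asns, Atf3, Chac1 and Slc7a11), in 3.53% of all promoters and in 1.82% of those of the genes tested. The share was 3.38% among genes that were higher at E5.5 and 1.31% among genes that were lower. The promoters of Asns and Pck2, which rose, and of Chac1, which was high in E5.5 embryo 1, are given to show the matching letters. They are RefSeq sequence of GRCm38.p6 on the gene's own strand, at chr6:7693210-7693359 (minus strand), chr14:55540116-55540265 (plus strand) and chr2:119350992-119351241 (plus strand), 150 bases for the first and second and 250 bases for Chac1. Positions count from the RefSeq start, which for Asns differs from the GENCODE gene end given above. Capitals mark the match, which begins 23 bases before the start in Asns, and 103 and 193 bases before it in Pck2 and Chac1, where it lies on the opposite strand.
Asns: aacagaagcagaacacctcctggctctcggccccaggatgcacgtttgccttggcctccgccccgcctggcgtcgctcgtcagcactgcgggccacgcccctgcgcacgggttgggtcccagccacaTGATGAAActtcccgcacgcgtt
Pck2: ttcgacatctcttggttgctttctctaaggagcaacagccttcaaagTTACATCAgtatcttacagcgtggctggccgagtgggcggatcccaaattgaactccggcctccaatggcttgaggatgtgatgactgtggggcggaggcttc
Chac1: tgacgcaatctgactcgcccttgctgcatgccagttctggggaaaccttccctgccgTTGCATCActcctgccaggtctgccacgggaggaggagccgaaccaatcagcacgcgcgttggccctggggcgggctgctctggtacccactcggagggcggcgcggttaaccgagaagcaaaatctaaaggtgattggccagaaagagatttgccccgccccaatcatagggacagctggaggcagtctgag

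Of 20 glycolysis genes, Ldhb and Pdk1 rose, Slc16a1 fell, 17 did not pass and the median was 0.10. The calls were 15% of the list, where 6.82% of all genes passed. Ldhb (ENSMUSG00000030246, chr6:142490249-142507957), the lactate dehydrogenase subunit B, was at 24.97, 13.5 and 18.2 CPM at E5.0 and 51.4, 63.9 and 59.2 CPM at E5.5 (1.61 ± 0.22, adjusted p = 0.00141), while Ldha, the other subunit, was at 1288, 1036 and 1187 CPM at E5.0 and 1011, 1141 and 1251 CPM at E5.5 (-0.05 ± 0.10, adjusted p = 0.833). Pdk1, the kinase that holds pyruvate dehydrogenase inactive, rose from 30.8, 29.1 and 31.3 CPM to 64.1, 97.9 and 60.01 CPM (1.28 ± 0.21, adjusted p = 0.0032). The monocarboxylate carrier Slc16a1 fell from 192, 134 and 152 to 89.996, 88.9 and 109.5 CPM (-0.73 ± 0.14, adjusted p = 0.00949) and lost its call without E5.5 embryo 2 (adjusted p = 0.0588). The calls of Ldhb and Pdk1 held with any 1 embryo left out. The glucose carriers Slc2a1 and Slc2a3 had log2 fold changes of -0.01 and 0.27 and did not pass.

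Of 24 tested genes of sterol and fatty acid synthesis, 6 fell (25%, where 3.75% of all genes fell) and none rose. All 24 had log2 fold changes below 0, from -1.31 to -0.06 with a median of -0.37. Scd1, a desaturase of fatty acids, was at 113, 162 and 176 CPM at E5.0 and 74.4, 58.98 and 48.7 CPM at E5.5 (-1.31 ± 0.18, adjusted p = 0.00141). Its E5.5 embryos lay below each E5.0 embryo, and the call held with any 1 embryo left out. Insig1, the sterol sensor that holds back SREBP, fell from 76.6, 116 and 84.6 to 51.5, 35.1 and 33.98 CPM (-1.20 ± 0.23, adjusted p = 0.00861, and 0.0506 without E5.5 embryo 2). The desaturase Scd2 (-0.65 ± 0.15, adjusted p = 0.0188) and the sterol carrier Stard4 (-0.89 ± 0.25, adjusted p = 0.0487) also fell. Both calls were lost with some embryo left out, with adjusted p up to 0.0795 without E5.5 embryo 2 for Scd2 and 0.143 without E5.5 embryo 3 for Stard4. Hmgcs1, Sqle and Fasn had log2 fold changes of -0.29, -0.50 and -0.06 and did not pass.

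Of the 13 protein genes of the mitochondrial genome, 6 fell (46.2%, where 3.75% of all genes fell) and none rose, 12 were below 0 and the median was -0.44. Their sum was 11875.1, 15082.5 and 16960.5 CPM at E5.0 and 10210.3, 11925 and 11241.4 CPM at E5.5, with E5.0 embryo 1 inside the later range. The mean difference over the list was -0.34 in log2 CPM and -0.24 without E5.0 embryo 4. Those that fell were mt-Co1, mt-Co2 and mt-Co3, the core of cytochrome oxidase, and mt-Nd1, mt-Nd2 and mt-Nd4 of complex I. Of these mt-Nd2 was at 1047, 1112 and 1257 CPM at E5.0 and 795, 867 and 814 CPM at E5.5 (-0.46 ± 0.09, adjusted p = 0.00855) and kept its call with any 1 embryo left out, while the other 5 lost theirs in 3 to 5 of these fits (adjusted p up to 0.123 without E5.5 embryo 1). Of 74 nuclear genes of oxidative phosphorylation 1 passed (1.35%), and their median was -0.14. That gene was Uqcrb of complex III, at 112, 80.4 and 107 CPM at E5.0 and 51.9, 57.9 and 78.7 CPM at E5.5 (-0.67 ± 0.18, adjusted p = 0.0359, up to 0.145 without E5.5 embryo 2). Transcripts of cytoplasmic ribosomal proteins were 63 of 76 above 0 with a median of 0.12, and 4 of them rose (5.26%, where 3.07% of all genes rose), Rplp0, Rpl8, Rpl3 and Rpl35. Rplp0, the stalk protein, was at 1366, 1519 and 1456 CPM at E5.0 and 1893, 1993 and 1909 CPM at E5.5 (0.42 ± 0.07, adjusted p = 0.00389), and Rpl8 at 1190.3, 1221 and 1266 CPM at E5.0 and 1539.5, 1535 and 1561 CPM at E5.5 (0.33 ± 0.07, adjusted p = 0.0102). Both kept their calls in each fit without an embryo, and Rpl3 and Rpl35 lost theirs in 5 of 6 (up to 0.152 without E5.5 embryo 2).

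Clustered histone genes lay mostly above 0, 58 of 65 with a median of 0.54, and 2 of them rose (3.08%, where 3.07% of all genes rose). One library stood apart: the histone genes summed to 7670 CPM, 3668 CPM and 7227 CPM at E5.0 and to 9033 CPM, 8427 CPM and 10851 CPM at E5.5, lowest in E5.0 embryo 2, which also had the fewest reads of the 6. The mean difference over the list was 0.58 in log2 CPM and 0.22 without that embryo. Hist1h3c was at 40.1, 20.5 and 27.97 CPM at E5.0 and 44.8, 73.8 and 82.3 CPM at E5.5 (1.17 ± 0.27, adjusted p = 0.0263) and Hist2h2ab at 17.6, 11.1 and 16.2 CPM at E5.0 and 27.7, 36.1 and 23.8 CPM at E5.5 (0.96 ± 0.22, adjusted p = 0.0209), and both calls were lost without 1 embryo (up to 0.0947 without E5.0 embryo 4 and 0.0967 without E5.5 embryo 2). Histone and ribosomal protein genes have near-identical copies, and how reads shared by copies were counted was not given, so single members are uncertain. Of 21 cell cycle genes 3 passed (14.3%, where 6.82% of all genes passed). Ccnd1, cyclin D1, rose from 86.2, 106 and 120.2 to 135, 189 and 135 CPM (0.55 ± 0.15, adjusted p = 0.0388), and Mycn, a MYC factor of growth, from 192, 197 and 146 to 225, 276 and 273 CPM (0.53 ± 0.14, adjusted p = 0.0366). Cdkn1c, the imprinted inhibitor p57, fell from 35.1, 62.01 and 77.96 to 29.8, 19.1 and 31.3 CPM (-1.13 ± 0.27, adjusted p = 0.0255). Without E5.5 embryo 2 none of the 3 passed, with adjusted p of 0.175, 0.137 and 0.108. The mitotic genes Ccnb1 and Cdk1 had log2 fold changes of 0.09 and -0.37 and did not pass.

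Short lists held 1 or 2 calls each, beside the 6.82% of all genes that passed. Of 10 YAP and TEAD targets 1 passed (10%), Ajuba, which rose from 116, 88.9 and 130.2 to 145, 158 and 156 CPM (0.45 ± 0.13, adjusted p = 0.0485, up to 0.148 without E5.5 embryo 2). Of 10 metallothionein and NRF2 targets 2 passed (20%). The glutathione transferase Gsta4 fell from 199, 192 and 223 to 91.6, 121 and 131 CPM (-0.84 ± 0.14, adjusted p = 0.00459), a call that held with any 1 embryo left out, and the heme oxygenase Hmox1 fell from 59.3, 55.3 and 90.6 to 39.7, 36.2 and 34.7 CPM (-0.89 ± 0.18, adjusted p = 0.0123), a call lost without E5.5 embryo 2 (adjusted p = 0.0579). Of 9 interferon and MHC class I genes 1 passed (11.1%), Irf1, an interferon regulatory factor, which fell from 121, 98.9 and 80.4 to 31.004, 43.5 and 68.7 CPM (-1.07 ± 0.26, adjusted p = 0.0297, up to 0.123 without E5.5 embryo 2).

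Among chromatin regulators, 5 of 23 Polycomb and Trithorax genes fell (21.7%, where 3.75% of all genes fell) and none rose, with a median of -0.21. Jarid2 (ENSMUSG00000038518, chr13:44729474-44921643), a subunit that guides the PRC2 complex, was at 500.1, 494 and 486 CPM at E5.0 and 294, 277 and 223 CPM at E5.5. The embryos of each stage lay close together, with a mean of 493 ± 7.14 CPM against 265 ± 36.99 CPM (SD, n = 3), and the change was -0.90 ± 0.10, adjusted p = 0.000456. Mtf2, another accessory PRC2 subunit, fell from 124, 173 and 159 to 113, 101 and 98.3 CPM (-0.55 ± 0.13, adjusted p = 0.0259). The core subunits Ezh2, Eed and Suz12 had log2 fold changes of -0.26, 0.02 and -0.21 and did not pass. In the PRC1 complex, Bmi1 fell from 15.7, 24.003 and 16.6 to 6.87, 6.06 and 6.17 CPM (-1.56 ± 0.26, adjusted p = 0.00408) and Pcgf6 fell from 69.8, 77.5 and 73.8 to 47.03, 55.5 and 56.1 CPM (-0.48 ± 0.13, adjusted p = 0.0474). Jarid2 and Bmi1 kept their calls with any 1 embryo left out. Mtf2 lost its call in 5 of these fits (up to 0.105 without E5.5 embryo 2) and Pcgf6 in all 6 (up to 0.163 without E5.5 embryo 1).

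Of 22 tested imprinted genes, 6 fell (27.3%, where 3.75% of all genes fell) and none rose, and the median was -0.07. Peg10 (ENSMUSG00000092035, chr6:4747306-4760517), a retrotransposon-derived gene expressed from the paternal allele, was at 62.6, 53.8 and 52.96 CPM at E5.0 and 13.3, 15.03 and 12.3 CPM at E5.5 (-2.06 ± 0.26, adjusted p = 0.000746), and the call held with any 1 embryo left out (adjusted p up to 0.00688 without E5.5 embryo 2). Mest, an enzyme of the hydrolase family, fell from 63.6, 60.01 and 87.7 to 29.4, 42.5 and 21.5 CPM (-1.18 ± 0.26, adjusted p = 0.0237), and Peg3, Nnat, Zrsr1 and Cdkn1c also fell, with log2 fold changes of -1.36 to -0.68. These 5 calls did not survive 3 to 5 of the fits without an embryo, with adjusted p up to 0.154 without E5.5 embryo 1. Grb10, a growth factor receptor adaptor, was at 53.01, 17.3 and 95.03 CPM at E5.0 and 133, 136 and 154 CPM at E5.5, above the earlier range in all 3 later embryos, and did not pass (adjusted p = 0.188). Igf2 and H19 were highest in E5.0 embryo 2, at 26.2 and 139 CPM, and did not pass. Kcnq1ot1 and other antisense RNAs cannot be separated from their host genes here, since the strand setting of the counting was not given.

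Of 519 tested genes of the X chromosome, 35 fell and 12 rose, which is 9.06% past the threshold where 6.82% of all genes passed, and their median log2 fold change was -0.32, where the medians of the autosomes ran from -0.05 to 0.07. The falls among them numbered 80 (median -0.47) without E5.0 embryo 2, 22 without E5.0 embryo 1 and 18 without E5.0 embryo 4. They numbered 13 without E5.5 embryo 1, 12 without E5.5 embryo 2 and 10 with embryo number as a block. The stages differ in the number of embryos with Y-linked reads, 1 of 3 at E5.0 and 2 of 3 at E5.5, and with a term for these reads added to the fit, chosen after the data were seen, 25 fell and 8 rose with a median of -0.22. Over the embryos with Y-linked reads, 1 at E5.0 and 2 at E5.5, the median difference of X-linked genes was 0.07 in log2(CPM + 1), where it was 0.00 on the autosomes. Over those without such reads, 2 and 1, it was -0.23, against 0.02 on the autosomes. These medians are given without a test. With the same term 866 genes passed in all. The call was followed for 125 genes past the threshold that were on a list, other than that of numbered zinc finger genes, or chosen for their size of change. Of these 20 did not pass with the term, among them Dppa2 (adjusted p = 0.0648), Kit (0.0647), Mest (0.0644), Dpp6 (0.118) and Apob (0.0756).

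The 15 genes with the largest rises among those read at 10 CPM or more were Sycp1, Piezo2, Wdr86, Pck2, Robo1, Kif1a, Arap3, Tenm3, Maml3, Gtf2i, Cdk18, Dpp6, Pgm2, Psat1 and Celsr3. Robo1 (ENSMUSG00000022883, chr16:72308306-73046095), a receptor for SLIT guidance cues, went from 6.61, 10.4 and 3.74 CPM at E5.0 to 45.05, 39.8 and 22.5 CPM at E5.5 (2.41 ± 0.34, adjusted p = 0.00255). Piezo2, a channel opened by mechanical force, went from 1.48, 1.27 and 0.330 to 13.8, 12.9 and 6.51 CPM (3.45 ± 0.48, adjusted p = 0.00141), and Kif1a, a kinesin motor, from 17.8, 2.91 and 13.3 to 68.98, 49.8 and 49.2 CPM (2.25 ± 0.46, adjusted p = 0.0288, up to 0.0782 without E5.5 embryo 2). The general transcription factor gene Gtf2i (ENSMUSG00000060261, chr5:134237834-134314760) was read more deeply, at 53.6, 73.5 and 100.1 CPM at E5.0 and 273, 255 and 248 CPM at E5.5 (1.77 ± 0.17, adjusted p = 0.000243). Maml3, a coactivator of Notch, rose by 1.78, the kinase gene Cdk18 by 1.76, the phosphoglucomutase Pgm2 by 1.74, Wdr86 by 2.73, and the GTPase regulator Arap3 and the potassium channel subunit Dpp6 by 2.08 and 1.75 on the log2 scale. Of the 15, Kif1a, Arap3 (0.0978 without E5.5 embryo 2), Dpp6 (0.167 without E5.5 embryo 1), Sycp1 and Psat1 lost their calls when some single embryo was left out. By voom with a weight per stage Piezo2 (adjusted p = 0.0752), Maml3 (0.122) and Tenm3 did not pass either, nor did Sycp1, Arap3, Dpp6 and Psat1.

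Several of these code for large receptors of axon guidance and cell adhesion. A list of 80 such genes, drawn up after the values were seen and therefore no support for a theme, had 60 tested, of which 9 rose, 3 fell and the median was 0.10. Over all genes 3.07% rose and 3.75% fell. The teneurin Tenm3, a transmembrane adhesion protein, was at 27.9, 28.9 and 23.7 CPM at E5.0 and 124, 117 and 57.7 CPM at E5.5 (1.896 ± 0.25, adjusted p = 0.0021), and Sema6a, a semaphorin, at 48.2, 66.7 and 70.6 CPM at E5.0 and 142, 231 and 158 CPM at E5.5 (1.52 ± 0.19, adjusted p = 0.00112). The atypical cadherins Celsr3, Celsr2 and Fat3 rose by 1.69, 0.85 and 1.61 on the log2 scale, with adjusted p of 0.00124, 0.00743 and 0.00175. These 5, like Robo1, kept their calls with any 1 embryo left out, and Tenm3 did not pass by voom (adjusted p = 0.0648). Of the ephrin receptors Ephb2 rose (1.33 ± 0.30, adjusted p = 0.0206). Epha2 fell from 128, 114 and 128 to 49.9, 40.2 and 57.05 CPM (-1.33 ± 0.20, adjusted p = 0.00212), a call lost with embryo number as a block (adjusted p = 0.0621), and Ephb1 fell from 15.4, 9.27 and 8.92 to 4.37, 3.34 and 5.07 CPM (-1.39 ± 0.34, adjusted p = 0.0281, up to 0.116 without E5.5 embryo 2). Ephb2 lost its call without E5.5 embryo 1 or 2 (up to 0.0762 without E5.5 embryo 1).

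**Figure D4:**
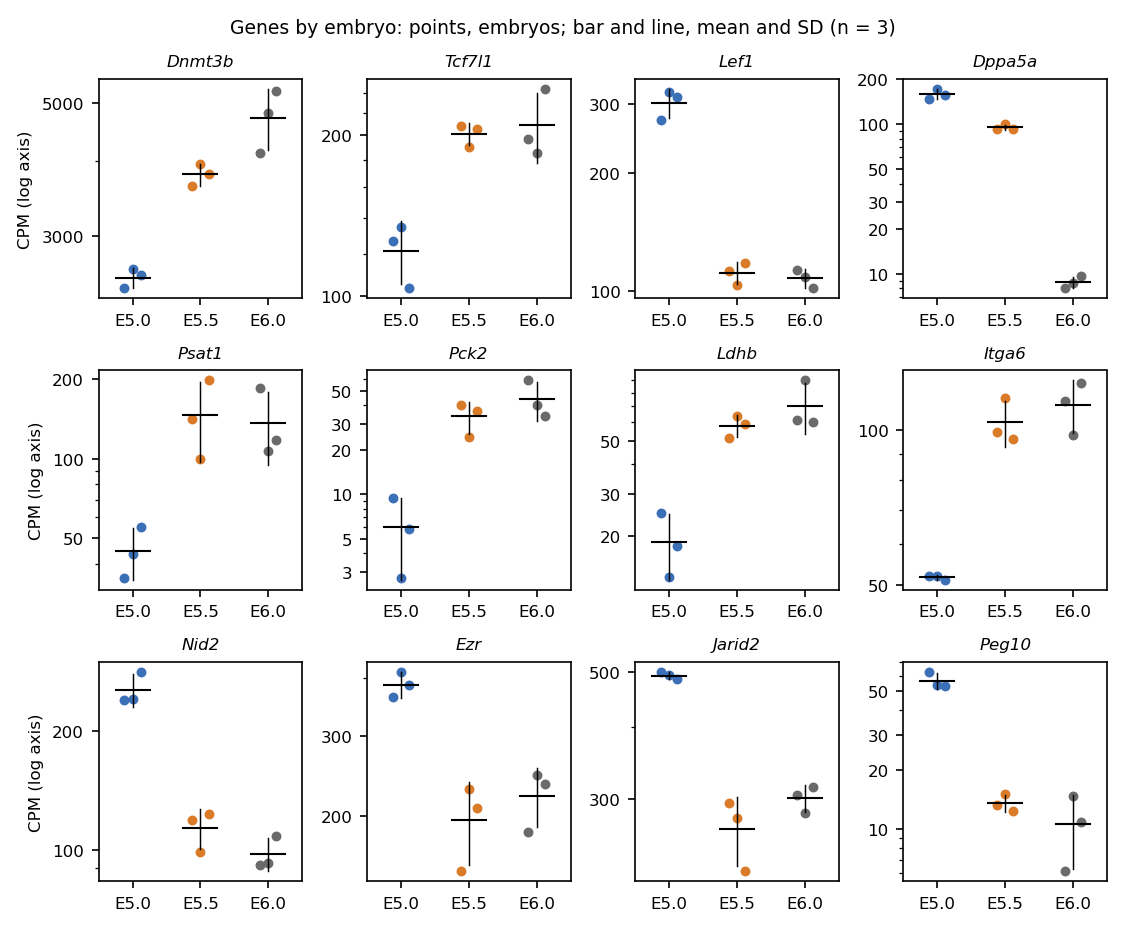
Points are single embryos of E5.0 (blue), E5.5 (orange) and E6.0 (grey) on log axes of CPM, with the mean as a bar and the SD as a line (n = 3 a stage), for 12 genes described in the text. In every panel the E5.0 and E5.5 points do not overlap, and from E5.5 to E6.0 Dppa5a falls further while Lef1 stays close to its E5.5 level.

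The 15 genes with the largest falls were Cyp2b23, Ngfr, Cubn, Dnah8, Slc7a8, Anxa2, Srgn, Epas1, Morc1, Phf11d, Lhx1, Morc4, Nlrp4c, Tdh and Apob. Epas1 (ENSMUSG00000024140, chr17:86753700-86833410), the hypoxia-inducible factor HIF2α, went from 26.2, 60.6 and 48.9 CPM at E5.0 to 5.31, 3.03 and 2.28 CPM at E5.5 (-3.68 ± 0.39, adjusted p = 0.000296). Tdh, the threonine dehydrogenase of early pluripotent cells, went from 14.4, 14.7 and 17.1 to 0.624, 2.51 and 2.03 CPM (-3.15 ± 0.44, adjusted p = 0.00158), and Slc7a8, an exchanger of neutral amino acids, from 15.96, 27.5 and 20.3 to 2.08, 1.36 and 0.676 CPM (-3.95 ± 0.53, adjusted p = 0.00124). The highest E5.5 embryo was at 5.31 CPM for these 3 genes and the lowest E5.0 embryo at 14.4 CPM, and genes of this group were named only where the stages did not overlap. Morc1, a silencer of transposons in the male germline, had 24.6, 34.2 and 56.9 CPM at E5.0 and a log2 fold change of -3.67, and its X-linked relative Morc4 had 19.2, 59.5 and 21.8 CPM and -3.51. The membrane-binding annexin Anxa2, the proteoglycan Srgn and the neurotrophin receptor Ngfr had log2 fold changes of -3.79, -3.68 and -5.03. Dnah8, a dynein heavy chain, was uneven at E5.0, with 127 CPM in embryo 1 and 16.5 CPM in embryo 2, and had a log2 fold change of -3.95. Cyp2b23, Phf11d and Nlrp4c, with log2 fold changes of -5.49, -3.62 and -3.25, belong to families of near-identical copies and are uncertain. Of the 15, Ngfr (0.106 without E5.5 embryo 2), Dnah8 (0.142 without E5.5 embryo 2), Morc4 (0.0681 without E5.5 embryo 1), Cubn and Apob lost their calls without some embryo. Cubn and Apob are endoderm markers, Srgn stands on the parietal endoderm list, where it and Sparc fell of 4 tested (50%, beside 3.75% of all genes), and Lhx1 is read in anterior endoderm. The summed endoderm markers were lower in each E5.5 embryo than in any E5.0 embryo, as given above, and their part in these falls was not tested.

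The next interval, from E5.5 to E6.0, was set beside the first in the same fit. The comparisons share the 3 E5.5 embryos, so their values are given side by side and no likeness between them is read. From E5.5 to E6.0, 631 genes (4.43%) passed the threshold, 269 higher (1.89%) and 362 lower (2.54%). Lef1 fell in the first interval and did not pass in the second, at 113, 108 and 101 CPM at E6.0 (-0.05 ± 0.10, adjusted p = 0.87). Tcf7l1 (0.05 ± 0.13, adjusted p = 0.884), Itga6 (0.11 ± 0.12, adjusted p = 0.697), Ezr (0.18 ± 0.15, adjusted p = 0.591) and Peg10 (-0.34 ± 0.26, adjusted p = 0.538) had passed in the first interval and did not pass in the second. The difference between the intervals, tested below, did not pass for Tcf7l1, Itga6, Ezr or Peg10. Dnmt3b passed in both, reaching 4135, 4813 and 5225 CPM (0.31 ± 0.08, adjusted p = 0.0412), and so did Robo1, at 114, 101 and 95.1 CPM (1.53 ± 0.30, adjusted p = 0.0152). Naive genes had a median of -0.70 in the second interval, streak genes one of 2.60 and visceral endoderm genes one of -1.37.

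The difference between the intervals was tested as a contrast in that fit, and 83 genes (0.583%) passed. The count was 19 without E5.5 embryo 2 and 160 without E5.0 embryo 1. Of the 83, 31 were lower in both intervals, 22 went up and then down, 26 down and then up, and 4 were higher in both. Tle3 (ENSMUSG00000032280, chr9:61372366-61418497), a Groucho corepressor that works with TCF factors, was at 166, 176 and 137 CPM at E5.0, 77.2, 54.7 and 48.3 CPM at E5.5 and 233, 217 and 231 CPM at E6.0. It fell (-1.41 ± 0.16, adjusted p = 0.000385) and then rose (1.92 ± 0.16, adjusted p = 1.05e-05), and the difference between the changes was 3.33 ± 0.29, adjusted p = 7.91e-05. Fst, the activin antagonist follistatin, went from 13.6, 4.18 and 7.49 to 1.14, 3.45 and 4.06 and then to 26.5, 41.97 and 19.6 CPM, a difference of 4.88 ± 0.93, adjusted p = 0.0394. Mest, Fstl1, a follistatin-like secreted protein, and Tdh were the other named genes with a positive difference. Dppa2, at 2.16, 1.64 and 2.24 CPM at E6.0, fell much further in the second interval, with a difference of -3.71 ± 0.32, adjusted p = 7.91e-05, and so did Zfp985, a zinc finger gene, and Arhgef3, an exchange factor of RhoA. Mageb16, an X-linked MAGE gene, did not pass in the first interval (-0.71 ± 0.30, adjusted p = 0.178) and fell in the second (-4.89 ± 0.41, adjusted p = 1.06e-05). With a term for Y-linked reads, added after seeing the data, the difference for Mageb16 was -4.28 (adjusted p = 0.00559), while those for Mest (0.0936) and Tdh (0.0778) did not pass. The calls of Fst, Mest, Fstl1, Tdh and Hapln4 were lost with some embryo left out. Hapln4, a link protein of hyaluronan matrices, went from 10.4, 10.5 and 3.85 to 13.01, 24.95 and 17.4 and then to 2.76, 1.96 and 2.63 CPM, a difference of -4.09 ± 0.64, adjusted p = 0.0106. Pdk1, described above, fell from its E5.5 level to 23.6, 19.7 and 30.3 CPM (-1.59 ± 0.21, adjusted p = 0.000542), a difference between the changes of -2.88 ± 0.34, adjusted p = 0.00195.

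**Figure D5:**
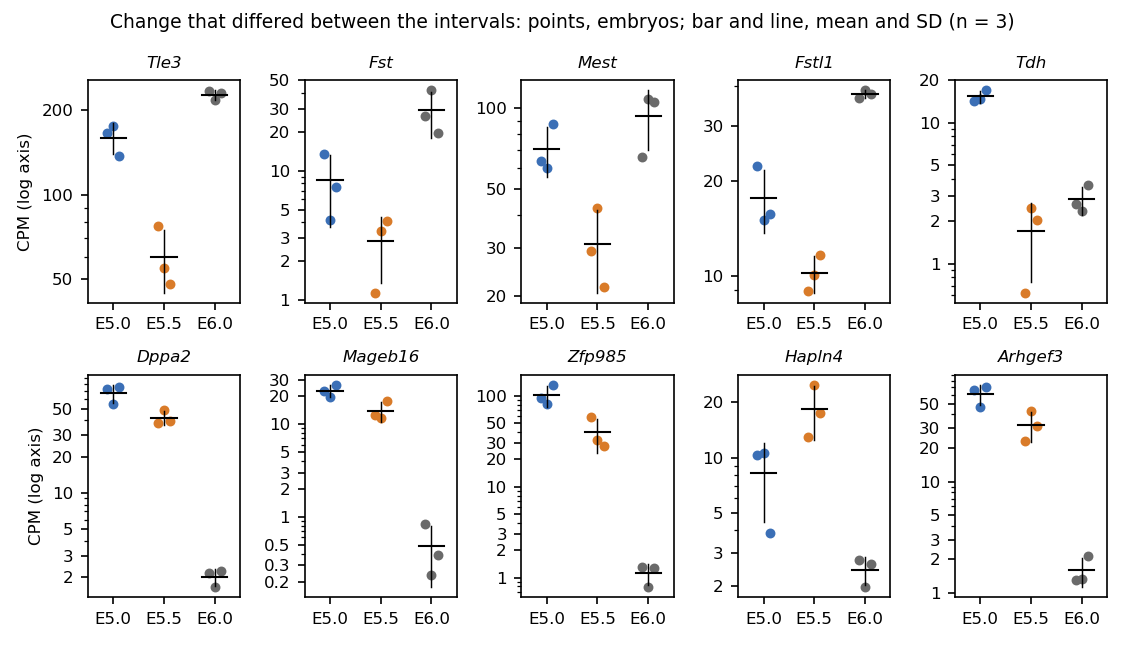
Points are single embryos of E5.0 (blue), E5.5 (orange) and E6.0 (grey) on log axes of CPM, with the mean as a bar and the SD as a line (n = 3 a stage), for the 10 genes named for the largest difference between the 2 intervals. Genes of the upper row are lowest at E5.5, and in the lower row 4 genes fall mainly after E5.5 while Hapln4 is highest at E5.5.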

How the data were processed

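RNA of single mouse epiblasts was sequenced, and the deposited table holds raw read counts per gene for all 21 samples of the series. Per the submitters' processing notes the tools were Trim Galore, TopHat2 2.1.0 and featureCounts 1.5.0, with the mm10 build, and the annotation, strand setting and treatment of reads with several positions are not given in the sources used here. The 9 epiblasts, 3 a stage, were analysed, and the 12 cultured samples were not used here. Nothing in the labels says whether embryos of a stage shared a litter. The genes, lists and comparisons were chosen with earlier results of these data known, and the list of axon guidance receptors and that of numbered zinc finger genes after the values were seen.

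Genes were kept by edgeR's filterByExpr over the 9 epiblasts, which left 14228 of 33861, and scaled by TMM. A quasi-likelihood model (edgeR 4.0.16, limma 3.58.1, R 4.3.3) with 1 term per stage gave each difference, its SE and a two-sided p with Benjamini-Hochberg adjustment. All 9 epiblasts share the estimate of spread (biological coefficient of variation 0.293). An exact permutation test of 3 embryos against 3 cannot go below p = 0.1 and was not used. On simulated counts the model recovered 35% of 2-fold and 64% of 4-fold changes, and 8 of 107 calls (7.48%) were false. The simulation gave a gene the same spread at each stage. The E5.0 embryos here differed more among themselves than those of E5.5, so these rates need not hold for the data. Tables and plots were made with Python 3.11.15, numpy 2.4.6, pandas 2.3.3 and matplotlib 3.10.9.

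Genes of the lists were named whatever their result, except a few that are counted with their lists and not reported here by name. Further named were the 15 rising and 15 falling genes with the largest change among those past the threshold with at least 10 CPM in the higher stage, no overlap between stages and no predicted-gene symbol, and by the same limits 5 genes in each direction for the difference between intervals. Gene positions and types came from GENCODE M21, matched by Ensembl identifier for 14195 of the 14228 genes, and promoters from RefSeq. The alternatives were DESeq2 1.42.0 size factors and Wald test, no filter on low counts, a mean of at least 5 CPM, the 6 embryos alone, a block on embryo number, leaving out loci of ribosomal RNA type and leaving out each embryo. Voom with a weight per stage and a term for Y-linked reads were added after seeing the data.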

Additional observations from a re-analysis of the deposited data

Results flagged for a closer look

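For 83 genes, 23 of them on a list or named above, the change from E5.5 to E6.0 differed from the change from E5.0 to E5.5, by a contrast of the changes in edgeR's quasi-likelihood fit of 9 epiblasts with Benjamini-Hochberg adjustment over all genes. Values here are the later change minus the earlier one on the log2 scale, and both changes use the E5.5 embryos. Among the 23, differences above 0 were found for Gsc at 6.20 (adjusted p = 0.0178), Fst at 4.88 (0.0394), Tdh at 3.87 (0.0473), Tle3 at 3.33 (7.91e-05), Mest at 2.77 (0.0313), Fstl1 at 2.68 (0.00521), Ctgf at 2.64 (0.0345), Dab2 at 2.07 (0.0288), Lef1 at 1.39 (0.00295) and Jarid2 at 1.08 (0.0178). Differences below 0 among them were found for Mageb16 at -4.18 (0.00407), Hapln4 at -4.09 (0.0106), Zfp985 at -3.79 (0.00538), Dppa2 at -3.71 (7.91e-05), Arhgef3 at -3.41 (0.00221), Wdr86 at -2.98 (0.045), Pdk1 at -2.88 (0.00195), Dppa5a at -2.70 (2.37e-05), Cdk18 at -2.52 (0.0178), Dppa4 at -2.07 (0.00407), Fgf4 at -1.53 (0.0345), Rplp0 at -0.62 (0.0345) and Rpl8 at -0.62 (0.0291). With a term for Y-linked reads, added after seeing the data, 19 of the 23 passed and 4 did not, which were Rplp0 (0.0579), Tdh (0.0778), Wdr86 (0.0876) and Mest (0.0936). With each embryo left out in turn, 9 of the 23 passed in all 6 fits and 14 did not pass in at least 1.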

How the results depend on the processing

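Where 971 genes differed between E5.5 and E5.0, DESeq2's Wald test over the same 14228 genes called 1590 (724 higher, 866 lower) and edgeR without a filter on low counts, over 26648 genes, 1659 (797 higher, 862 lower). The 6 embryos fitted alone gave 453 (150 higher, 303 lower), and voom with a weight per stage, chosen after seeing the data, 578, of which 164 were higher. Leaving out 1 embryo gave 371 to 1260 genes, 174 to 616 higher and 197 to 644 lower. The share of lower genes was 55% and moved to 66.9% with the 6 embryos alone and to 71.6% with voom. It was 49% without E5.0 embryo 1, 50.4% without E5.0 embryo 4 and 50.6% without E5.5 embryo 3. The labels do not say whether embryo numbers pair the samples. Deviations of same-numbered embryos correlated at -0.069 to 0.127, which cannot settle it, since embryos of different numbers were not correlated for reference. A fit with the number as a block gave 421 genes, 187 higher and 234 lower. The 83 genes whose change differed between intervals became 336 by the Wald test, 410 without a filter and 19 to 160 without 1 embryo; the difference was not fitted for the 6 embryos alone. The cause of these shifts was not tested. For 125 list or otherwise chosen genes past the threshold the call was followed through these runs. They did not include the list of numbered zinc finger genes or genes named only for the difference between intervals. Of the 125, 53 kept the call in all 6 fits that left out an embryo and 72 lost it in at least 1, and none reversed in any alternative run. With 3 embryos a stage the simulation, which gave each stage the same spread, recovered 35% of 2-fold changes, and smaller ones were not simulated.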

Other observations

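Numbered zinc finger genes, a list drawn up after the values were seen, moved in both directions: of 358 tested, 9 rose and 14 fell, which is 6.42% past the threshold where it was 6.82% over all genes, with a median log2 fold change of 0.08. Nr1h5, a nuclear receptor gene chosen after its values were seen, was at 0, 0 and 0 CPM at E5.0, 154, 0.104 and 111 CPM at E5.5 and 0.240, 84.3 and 91.02 CPM at E6.0. It was high in some later embryos and at or near 0 in the others, and by edgeR's quasi-likelihood test it did not pass (adjusted p = 0.277).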
